A study of Mus musculus with 27 samples.

Results

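This account concerns 10 genes of glycolysis in mouse embryonic fibroblasts (MEFs), primary cells grown from dissected embryos, with and without the *Firre* locus. *Firre* is a long noncoding RNA gene of the X chromosome. The genes, in the order of their steps, are *Hk2*, *Gpi1*, *Pfkl*, *Aldoa*, *Tpi1*, *Gapdh*, *Pgk1*, *Pgam1*, *Eno1* and *Ldha*, and they were taken by symbol from the 37310 genes of the expression table, where each symbol had 1 row. RNA-seq was done on 4 groups of 3 libraries each, female wild-type (WT), female *Firre* KO, male WT and male *Firre* KO. The KO cells (Firre-/- in females, the only copy in males) carry a germline deletion of the whole *Firre* locus made by recombination between loxP sites. The WT cells carry the intact locus, and no group was given a treatment. All MEFs were prepared from mid-gestation embryos freed of head, limbs and viscera, frozen as individual lines and used at early passage. The labels number the replicates but do not tie them to embryos or lines. Neither sex nor genotype can therefore be told apart from line, and p-values measure the spread between these libraries, which may be technical.

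Glycolysis splits glucose into pyruvate in the cytosol and yields ATP and NADH. Hexokinase traps glucose as a phosphate, phosphofructokinase commits the sugar to the pathway, aldolase cuts it into a pair of triose phosphates, and the later enzymes recover ATP. Lactate dehydrogenase then turns pyruvate into lactate and returns NAD+, the route that cultured fibroblasts are known to use heavily even in oxygen. Many of these genes are targets of the hypoxia-inducible factor HIF-1 and of MYC, and several have left processed pseudogenes, copies of their mRNA inserted elsewhere in the genome.

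The libraries held 42986516 to 65454660 expected counts, and the shallowest male library exceeded the deepest female one. *Firre* had 0 counts in each KO library and at least 90 in each WT library. *Xist* had at most 4 counts in any male and at least 17445 in any female library, and 4 genes of the Y chromosome had at most 1 count in any female library, so 0 libraries went against their labels. Fibroblast markers were abundant throughout: 12 genes such as *Col1a1*, *Vim* and *Fn1* summed to between 16992 and 25735 CPM (counts scaled for library size). The third replicates of the male WT and of the male KO stood apart from the other replicates of their groups. Counts of these 2 libraries differed from the other replicates with a chi-square per degree of freedom of 35.2 to 41.9, compared with 7.11 to 15.5 for the remaining pairs. Results of the members that rest on them are given with and without them.

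The member that shares most sequence with other loci is *Gapdh*, which encodes glyceraldehyde-3-phosphate dehydrogenase. An annotated gene was counted as a near copy of a member when it aligned to the member's transcripts with at least 80% identity over at least 300 bases and was no known isoenzyme. *Gapdh* had 122 near copies, of which 107 had counts above 0. A pair of them held nearly all of those counts, *Gm10359* on chromosome 5 (mm9, 106291585 to 106292764, minus strand) and *Gm12671* on chromosome 4 (mm9, 91518179 to 91519431, minus strand). Both hold the complete *Gapdh* coding sequence of 1002 bases with 0 differences. The first 60 coding bases, shared by all 3 loci and shown because a read from them has no single origin, are printed with the start codon in capitals.
coding start: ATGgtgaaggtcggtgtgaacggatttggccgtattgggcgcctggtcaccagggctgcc

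Over the aligned length of the 1420-base *Gapdh* transcript, *Gm10359* differs by the substitutions G197A and G201A and *Gm12671* by G197A alone, with positions counted from 1 at the 5′ end of the transcript, and both lie in the 5′ UTR. These letters tell the 3 loci apart upstream of the coding sequence, so the windows are shown with the differing positions in capitals (mm9 reference, transcript strand; chr6:125115580-125115606, chr5:106292750-106292776 and chr4:91519389-91519415).
Gapdh: gttccagagacGgccGcatcttcttgt
Gm10359: gttccagagacAgccAcatcttcttgt
Gm12671: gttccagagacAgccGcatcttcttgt

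The other difference is an AG inserted in both copies in the 3′ UTR, after position 1281 of the *Gapdh* transcript. It stands in a run of AG, so its exact place is ambiguous, and it is shown in capitals (chr6:125111997-125112024, chr5:106291665-106291694 and chr4:91518304-91518333).
Gapdh: aaggacactgagcaagagaggccctatc
Gm10359: aaggacactgagcaAGagagaggccctatc
Gm12671: aaggacactgagcaAGagagaggccctatc

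RSEM, the program behind the deposited values, divides a read that matches several genes among them in fractions. In the whole *Gapdh* family, *Gapdh* itself was assigned 75.2% of the counts on average and between 71.1% and 82.2% in single libraries. *Gm12671* received 15.9% to 26.9% in female MEFs (6 libraries) and 0.074% to 1.17% in male MEFs (6 libraries). *Gm10359* received the reverse, 1.36% to 9.65% in female MEFs and 16.2% to 25.5% in male MEFs. The sexes did not overlap for either copy, although their sequences differ by 1 letter over the length aligned to the *Gapdh* transcript. The alignment runs beyond the annotated *Gm10359*, whose 1180 bases begin just after position 197, and the annotated *Gm12671* has 1253 bases, so the listed copies also differ in length. In the fit over all genes *Gm12671* was higher in female than in male WT MEFs by 7.47 ± 0.58 on the log2 scale (edgeR, SE, adjusted p = 1.4e-05), and *Gm10359* differed by −1.66 ± 0.42 (adjusted p = 0.00995). Which of the 3 loci the divided reads came from was not tested. The family summed to a whole number of counts, within 0.06, in 12 of 12 libraries, so the fractions were shared among the genes counted here.

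**Figure D1:**
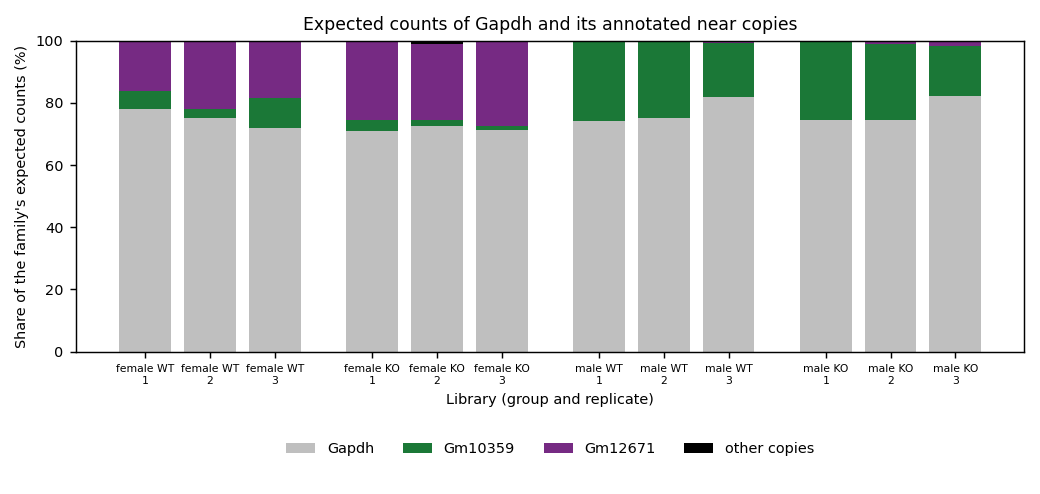
Share of the expected counts of *Gapdh* and its annotated near copies (%, vertical axis) in each of the 12 libraries, stacked by gene. *Gm12671* fills 15.9% to 26.9% in the female bars and at most 1.17% in the male bars, where *Gm10359* fills 16.2% to 25.5%.

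The remaining members were far less affected by shared reads. Within 0.001 of a whole number, *Hk2*, *Pfkl*, *Tpi1* and *Pgk1* had whole counts in 12 of 12 libraries, *Gpi1*, *Aldoa*, *Gapdh* and *Eno1* in 0, *Pgam1* in 3 and *Ldha* in 5. Among the 14854 genes of the table with a mean of at least 10 counts, 58.7% were whole in every library by the same tolerance. The family sum was judged with the wider tolerance of 0.06. By it *Eno1* was off a whole number in 12 libraries, *Gpi1* in 11, *Gapdh* in 10, *Pgam1* in 8, *Aldoa* in 5 and *Ldha* in 3. *Ldha* had 14 near copies, *Aldoa* 7, *Eno1* 6, *Pgam1* 4, *Pgk1* 2, *Gpi1* 1 and the other members 0. Their share of the family's counts never exceeded 0.528%, which was the highest value for *Pgam1*. That value came from *Pgam1-ps2*, a pseudogene with the identical 765-base coding sequence, which held counts in 3 libraries, all male, and at most 190. *Aldoart1* had 6.04 to 16.1 counts beside *Aldoa*, and *Gm13699* had 0.3 to 51.6 beside *Eno1*. *Pgk1-rs7* and *Gm5537* contain the whole *Pgk1* coding sequence of 1254 bases unchanged and were listed at 0 in all libraries, so no read of *Pgk1* was divided with them. For *Gpi1* the sum with its copy *Gm1840*, which had at most 7.22 counts, was whole in only 3 libraries, so part of its fractions lay with genes not counted as near copies.

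The members differed widely in level. Counts divided by gene length (approximate TPM, from merged exons) allow a comparison between genes. *Gapdh* ranked first among the members with 2756 ± 185 TPM (SD over the 12 libraries), and 42 genes of the table had a higher mean. *Eno1*, the enolase of the second last step, had 1218 ± 64.1 TPM and *Pgk1*, the first ATP-yielding kinase, 1206 ± 33.2 TPM, and these neighbours did not differ beyond their spread. *Ldha*, the lactate-forming subunit, followed with 1055 ± 69 TPM. *Pgam1*, the phosphoglycerate mutase, with 855 ± 46.7 TPM and *Aldoa*, the aldolase of most tissues, with 820 ± 54.3 TPM were again within each other's spread.

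The 4 lowest members included hexokinase and phosphofructokinase, which are known as control points. *Tpi1*, the triose phosphate isomerase, had 459 ± 30.1 TPM and *Gpi1*, the glucose phosphate isomerase, 264 ± 13.1 TPM. *Pfkl*, the liver-type subunit of phosphofructokinase, had 61.8 ± 19 TPM and *Hk2*, the inducible hexokinase, 36.1 ± 2.2 TPM. The 42.2 to 93.5 TPM of *Pfkl* were split between the sexes as described further on. The ranks of the middle members depend on the length used: with the longest annotated transcript *Eno1* had 2749 TPM, *Ldha* 1515, *Pgk1* 1261, *Aldoa* 1241 and *Pgam1* 727, while *Gapdh* stayed first and *Hk2* last.

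By merged exons *Pkm2*, the pyruvate kinase gene of the last step, had 2267 ± 166 TPM, between *Gapdh* and *Eno1*. With the longest annotated transcript it had 2076 TPM, below the 2749 TPM of *Eno1*. Of 18 genes listed as isoenzymes of these steps or as the last step, 8 had a mean of at least 1 CPM, which are *Pkm2*, *Hk1*, *Pfkp*, *Eno3*, *Ldhb*, *Pfkm*, *Bpgm* and *Eno2*. *Hk1*, the constitutive hexokinase, had 88 to 113 CPM, *Pfkp*, the platelet-type phosphofructokinase, 55.2 to 65.5 CPM and *Ldhb*, the other lactate dehydrogenase subunit, 22.2 to 30.2 CPM. *Pfkm* had 21.5 to 30 CPM and *Bpgm*, known from red cells, 12.5 to 17.3 CPM. *Pklr* of liver and red cells had at most 0.0169 CPM, and the germ-cell genes *Pgk2* and *Ldhc* were at 0 in every library. The 10 members together took 0.8135% to 0.9553% of a library.

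The first comparison asked whether loss of the *Firre* locus altered these genes in female MEFs. No member passed the thresholds that the study used, a log2 fold change beyond 1 in either direction with an adjusted p under 0.01. In that comparison 0.0065% of the 15387 genes tested passed, which is 1 gene, *Firre*. At an adjusted p under 0.05 with no fold limit, again 0 of 10 members passed, and 0.013% of all genes did. At an unadjusted p under 0.05 there was 1 member by edgeR and 0 by DESeq2, and 7.55% of all genes by edgeR. That count depends on the libraries in the fit: with the 2 male libraries numbered 3 left out, an alternative chosen after seeing the data, 6 of 10 members had an unadjusted p under 0.05 in female MEFs, as did 14.4% of all genes, and again 0 members passed an adjusted p under 0.05 (edgeR). All 10 log2 fold changes were above 0, between 0.03 and 0.18, with a median of 0.11 beside a median of 0 over all genes tested.

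For 8 of the 10 members each KO library lay above each WT library, all but *Hk2* and *Gapdh*, while 10.9% of all genes showed such a gap upwards and 8.2% downwards. No member did so downwards. *Tpi1* had 344, 357 and 328 CPM in the female WT libraries and 380, 391 and 387 CPM in the female KO libraries. The fitted difference was 0.17 ± 0.08 on the log2 scale (SE), with a 95% interval from −0.01 to 0.35 (edgeR, adjusted p = 0.676). *Pgam1* had 548, 563 and 560 CPM in WT and 594, 603 and 627 CPM in KO. Its difference was 0.13 ± 0.05 (edgeR, interval 0.01 to 0.24, unadjusted p = 0.0381, adjusted p = 0.632), the only member with an unadjusted p under 0.05 in the fit of all libraries.

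*Pfkl* had 69.6, 67.3 and 64.8 CPM in female WT and 74, 78.3 and 76.2 CPM in female KO libraries, a difference of 0.18 ± 0.13 that its spread over all groups left within an interval from −0.12 to 0.48. *Eno1* had 2281, 2368 and 2271 CPM in WT and 2466, 2499 and 2545 CPM in KO. *Ldha* had 1045, 1057 and 1008 CPM in WT against 1090, 1171 and 1126 CPM in KO. The groups did not overlap for any of these 3 genes, with fitted differences of at most 0.18 and adjusted p-values of at least 0.691 (edgeR).

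By the counts that RSEM gave to its own row, *Gapdh* had the smallest difference of the members, from 2382, 2401 and 2252 CPM in WT to 2370, 2433 and 2394 CPM in KO, and these groups overlapped. Its log2 difference was 0.03 (interval −0.04 to 0.11). With all near copies added to it, the family had 3047, 3198 and 3136 CPM in WT and 3334, 3359 and 3360 CPM in KO libraries, which did not overlap, and the difference was 0.10 (edgeR, adjusted p = 0.68). The share of a library held by the 10 members was 0.8948% ± 0.0124 (SD, n = 3) in female WT and 0.9434% ± 0.0104 (SD, n = 3) in female KO MEFs, without overlap. This share is a sum over chosen genes and was given no test. Over the 8 proliferation markers, among them *Mki67* and *Pcna*, all 8 log2 fold changes were above 0 in the female KO too, between 0.04 and 0.18, and 0 passed. In the male KO all 8 were above 0 as well, between 0.12 and 0.20 with a median of 0.15, where 2 of the 10 members were above 0 with a median of −0.02. Averaged over the sexes, 4 of the 8 markers had an unadjusted p under 0.05 and 0 an adjusted one (edgeR). Their summed level was 1316 to 1396 CPM in female WT and 1387 to 1592 CPM in female KO libraries, and 1254 to 1451 CPM in male WT and 1285 to 1777 CPM in male KO libraries. Their part in the values of the members was not tested. None of the epithelial, endothelial or fibroblast markers passed the adjusted threshold in this comparison (edgeR). Of 7 epithelial markers 1 log2 fold change was above 0, their median was −1.22, and 3 had an unadjusted p under 0.05 (*Krt5* −3.45, *Krt14* −2.51 and *Cdh1* −1.96). Their sum was 74.6 to 129 CPM in female WT and 76.1 to 81.6 CPM in female KO libraries. The 6 tested endothelial markers had a median of −0.43, and 2 of 12 fibroblast markers had an unadjusted p under 0.05. The part of these in the values of the members was not tested either.

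**Figure D2:**
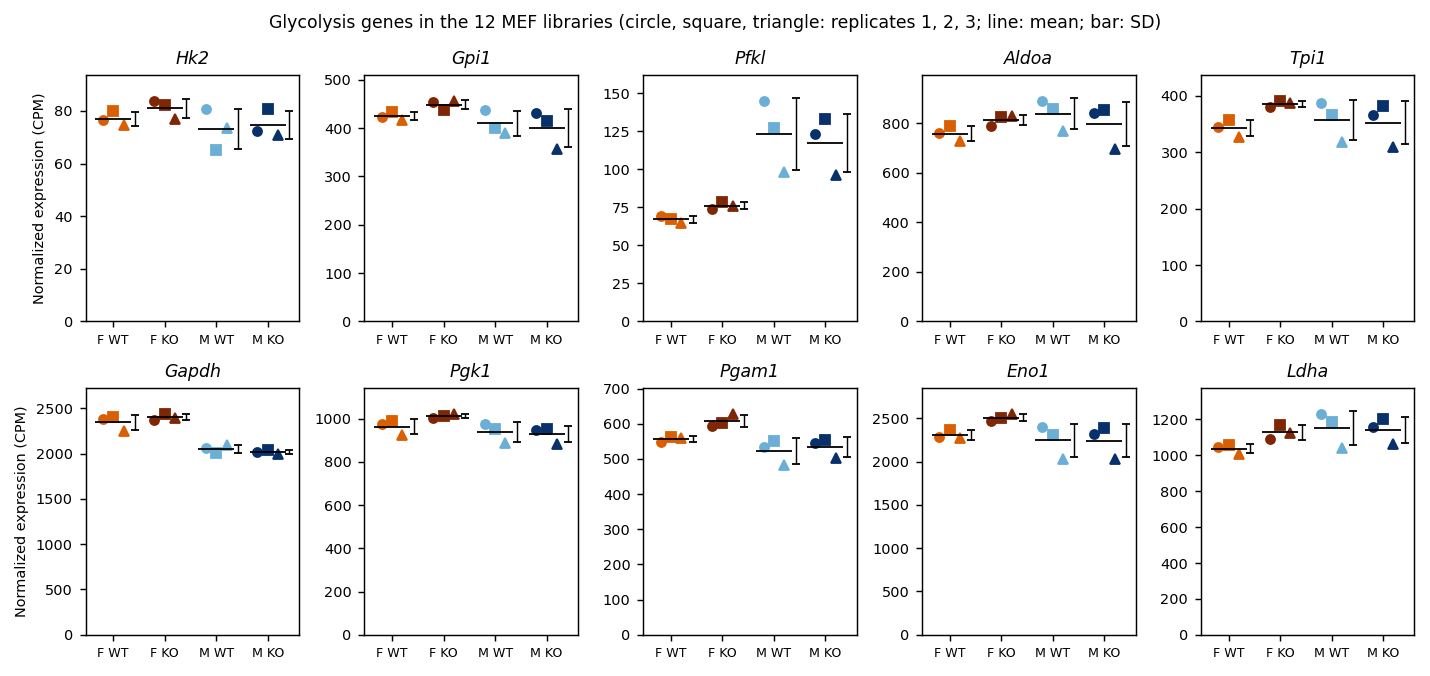
Normalized expression (CPM, linear axis from 0) of the 10 genes in the 12 libraries, with the mean of each group as a line and its SD as a bar. F is female and M is male. *Pfkl* lies between 64.8 and 78.3 CPM in female and between 96.2 and 145 CPM in male libraries, and the triangles of the male groups, the third replicates, are low for most genes.

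In male MEFs no member passed either. The thresholds of the study were met by 0 of 10 members and 0.0065% of genes (*Firre* alone), and an adjusted p under 0.05 by 0 of 10 members and 0.0065% of genes. An unadjusted p under 0.05 was reached by 0 members with edgeR and 0 with DESeq2, and by 2.06% of all genes with edgeR. The log2 fold changes ran from −0.07 to 0.03, with a median of −0.02, and 2 of 10 were above 0. No member had groups that did not overlap, whereas 2.78% of all genes did upwards and 2.52% downwards.

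The individual values show how closely the male groups matched. *Aldoa* had 889, 857 and 769 CPM in male WT and 840, 852 and 695 CPM in male KO libraries, with a log2 difference of −0.07 (interval −0.24 to 0.09). *Eno1* had 2393, 2310 and 2034 CPM in WT and 2314, 2384 and 2024 CPM in KO, a difference of −0.00 (interval −0.15 to 0.14). *Pgk1*, the 1 member on the X chromosome, had 976, 951 and 888 CPM in WT and 947, 952 and 884 CPM in KO, a difference of −0.02 (interval −0.12 to 0.08). The narrowest interval was that of *Gapdh*, from −0.10 to 0.05, and the widest that of *Pfkl*, from −0.36 to 0.22. With the 2 male libraries numbered 3 left out, 0 members passed an adjusted p under 0.05 in either sex (edgeR). Averaged over the sexes 3 members and 8.97% of all genes then had an unadjusted p under 0.05.

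Averaged over the sexes, 0 of 10 members passed the thresholds of the study (0.0065% of genes) or an adjusted p under 0.05 (0.0195% of genes). The log2 fold changes ran from 0.00 to 0.08, and 0 members had an unadjusted p under 0.05 by edgeR or by DESeq2, compared with 6.24% of all genes by edgeR. For all 10 members the log2 fold change was higher in female than in male MEFs, by 0.04 to 0.25. That difference between the sexes passed for 0 of 10 members by either rule, as for 0% of all genes. Its unadjusted p was under 0.05 for 0 members by edgeR and for 0 by DESeq2, and for 3.19% of all genes by edgeR, so an effect of the KO in one sex and not in the other was not shown. With the 2 male libraries numbered 3 left out, 6 members had an unadjusted p under 0.05 for this difference, as 7.76% of all genes did, and 0 an adjusted p under 0.05 (edgeR).

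**Figure D3:**
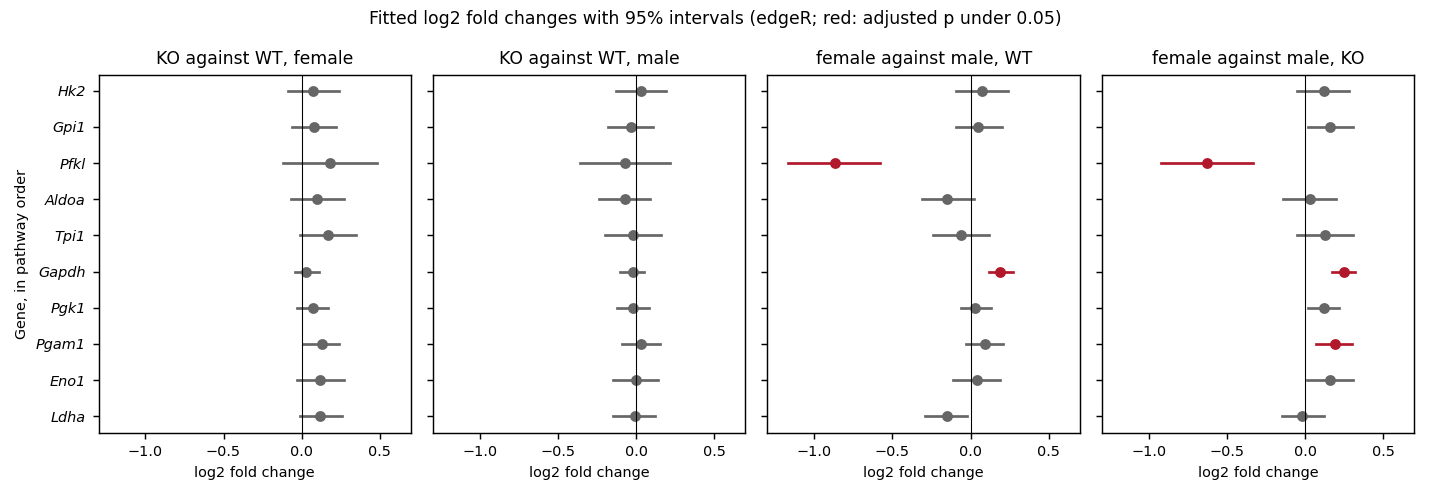
Fitted log2 fold changes of the 10 genes (points) with 95% intervals (lines) in 4 comparisons, with genes in pathway order from top to bottom. In the comparisons of KO and WT all points lie between −0.07 and 0.18 and none is red, and *Pfkl* at −0.87 and −0.63 stands apart in the comparisons of the sexes.

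The second comparison set female against male MEFs of one genotype. By the thresholds of the study 0 of 10 members differed in WT, where 4.54% of all genes did, and 0 in KO, where 3.89% did. At an adjusted p under 0.05 without a fold limit, 1 member was higher and 1 lower in female WT MEFs, against 18.9% and 19.8% of all genes. In KO MEFs 2 were higher and 1 lower, against 18.9% and 19.7% of genes. These are calls by edgeR. DESeq2 called 2 members in WT and 4 in KO, where it added *Pgk1*, and its share of all genes is not given here. With 10 members, the shares called by edgeR were near those of all genes. In bulk RNA, fewer cells of a type and less RNA per cell cannot be told apart.

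*Pfkl* differed most. It had 145, 127 and 98 CPM in the male WT libraries against 69.6, 67.3 and 64.8 CPM in the female WT libraries, so the groups did not overlap. The level was 1.83-fold lower in female WT MEFs, a log2 difference of −0.87 ± 0.13 (edgeR, interval −1.17 to −0.58, adjusted p = 0.00064). In the KO it had 123, 133 and 96.2 CPM in male and 74, 78.3 and 76.2 CPM in female libraries, again without overlap. There it was 1.54-fold lower in female MEFs, with a log2 difference of −0.63 ± 0.13 (edgeR, adjusted p = 0.00414). The third male replicates were the lowest of their groups, and without the male WT library numbered 3 the difference was −1.01, which passes the thresholds of the study. In neither male group did *Pfkl* fall below its highest female value of 78.3 CPM.

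*Gapdh* differed in the other direction and by less. It had 2058, 2003 and 2091 CPM in male WT and 2382, 2401 and 2252 CPM in female WT libraries, and the groups did not overlap. It was 1.14-fold higher in female WT MEFs, a log2 difference of 0.19 ± 0.03 (edgeR, interval 0.12 to 0.27, adjusted p = 0.00146). In the KO the male libraries had 2022, 2036 and 1997 CPM, the female libraries 2370, 2433 and 2394 CPM, and the log2 difference was 0.25 ± 0.03 (edgeR, adjusted p = 0.00035). With all near copies added to *Gapdh*, the differences were 0.23 in WT (adjusted p = 0.004) and 0.35 in KO (adjusted p = 0.00036, edgeR), so they were as large with the reads assigned to *Gm10359* and *Gm12671* included.

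*Pgam1* was called in the KO alone. It had 594, 603 and 627 CPM in female KO and 546, 553 and 503 CPM in male KO libraries, without overlap, and a log2 difference of 0.19 ± 0.05 (edgeR, adjusted p = 0.0178). Without the female KO library numbered 3 the adjusted p was 0.069 with a difference of 0.16, and without the male KO library numbered 3 it was 0.058 with a difference of 0.14 (edgeR). In WT the difference of *Pgam1* was 0.09 (edgeR, adjusted p = 0.205). Whether the sexes differed more in the KO is the same test as the difference in the KO effect above, with an adjusted p of 1 for *Pgam1* (edgeR).

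The other members did not reach an adjusted p under 0.05 in either genotype in the edgeR fit of all libraries. *Ldha* had 1229, 1185 and 1043 CPM in male WT against 1045, 1057 and 1008 CPM in female WT libraries, and its difference of −0.15 had an interval from −0.29 to −0.02 and an adjusted p of 0.0753 (edgeR). In the KO its difference was −0.02. *Pgk1*, which in female cells is subject to X inactivation, had 974, 989 and 922 CPM in female WT and 1003, 1010 and 1020 CPM in female KO libraries. Its difference between the sexes was 0.03 in WT and 0.12 in KO (edgeR, adjusted p = 0.574 and 0.0503). *Hk2* stayed within 65.2 to 83.8 CPM over all libraries, with differences of 0.07 in WT and 0.12 in KO (edgeR, adjusted p = 0.463 and 0.236).

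Counting gaps in place of tests, *Gapdh* was above and *Pfkl* below every male library in WT, where 25.5% of all genes had such a gap upwards and 26.4% downwards. In KO, *Gpi1*, *Gapdh*, *Pgk1*, *Pgam1* and *Eno1* lay above and *Pfkl* below, against 24.5% and 25.7% of genes. With the 2 male libraries numbered 3 left out, 5 members had an adjusted p under 0.05 in WT, *Pfkl*, *Aldoa*, *Tpi1* and *Ldha* lower and *Gapdh* higher in female MEFs (edgeR), where 23.1% of all genes were lower and 22% higher. In KO there were then 4, *Pfkl* lower and *Gapdh*, *Pgam1* and *Eno1* higher, against 22.8% of genes lower and 21.8% higher. The differences of *Aldoa*, *Tpi1* and *Ldha* in WT became −0.20, −0.14 and −0.22, and their adjusted p-values were 0.0027, 0.026 and 0.0018.

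Markers of other cell types moved with sex. All 10 macrophage markers, among them *Csf1r* and *Cd68*, were higher in female MEFs of both genotypes at an adjusted p under 0.05, and summed to 36.3 to 116 CPM in female and 7.08 to 14.8 CPM in male libraries. Of 7 epithelial markers 7 were higher in WT and 2 in KO, with sums of 74.6 to 129 CPM in female and 40.8 to 53.7 CPM in male libraries. Of 9 neural markers 3 in WT and 5 in KO differed, all higher in female, with sums of 809 to 1018 CPM against 705 to 846 CPM. Of 7 endothelial markers 4 in WT and 1 in KO were higher in female MEFs, with sums of 25.7 to 37 CPM against 17.4 to 23.9 CPM. *Cldn5* was at 0 in at least 1 library.

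Of 11 skeletal muscle markers 5 in WT and 6 in KO were higher in female MEFs. Their sums overlapped, with 90.4 to 171 CPM in female and 80.3 to 146 CPM in male libraries. The muscle-defining genes *Myod1*, *Myog*, *Myf5*, *Pax7* and *Ckm* were each at 0 in at least 1 library. The 8 muscle markers tested had median log2 differences of 3.04 in WT and 3.34 in KO, with 7 of 8 above 0 in each (edgeR). Of the 12 fibroblast markers 4 in WT were lower in female MEFs, and in KO 5 were lower and 1 was higher. Of 8 proliferation markers 3 were higher and 1 lower in female WT, and 1 higher and 1 lower in female KO MEFs, with sums of 1254 to 1777 CPM over all libraries. Red cell markers were nearly absent, at no more than 0.207 CPM in sum. The part of these cells in the differences of the members was not tested.

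Within a group most of the members deviated in the same direction in the male libraries numbered 3, with *Gapdh* and *Hk2* as exceptions in WT. In the male WT library numbered 3, 8 of the 10 members were the lowest of their group, and in the male KO library numbered 3 all 10 were, while 41.2% and 42.9% of all genes were the lowest there. The median member was 0.18 below the mean of the other replicates on the log2 scale in both. The members' share of a library was 0.8135% in both, compared with 0.8758% to 0.9043% in the other male libraries. In the female WT library numbered 3, 9 members were the lowest by a smaller step, with a median of 0.07, and so were 35% of all genes. In the female KO library numbered 1, 8 members were the lowest, with a median step of 0.03, and so were 32.9% of all genes.

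After the mean of each group was taken away, the median Pearson correlation over the 45 pairs of members was 0.83, with a range from −0.23 to 0.98, over 12 libraries that share their scaling. Over all pairs of the 15387 tested genes the median was 0, and 1.3% of pairs reached the median of the members. With the male libraries numbered 3 left out, the median over the members was 0.59, with a range from −0.50 to 0.94 over 10 libraries, and 9.43% of all pairs reached it. With all 12 libraries *Tpi1* had a median correlation of 0.95 with the others, *Aldoa* and *Eno1* 0.91, and *Pfkl*, *Pgk1* and *Ldha* 0.90. *Gapdh* at 0.19 and *Hk2* at 0.36 followed the rest least. *Gapdh* had 2091 and 1997 CPM in the male libraries numbered 3 and 2003 to 2058 CPM in the other male libraries. *Tpi1* had 319 and 310 CPM in the male libraries numbered 3. With its near copies added, the *Gapdh* family had 2558 and 2429 CPM in those 2 libraries and 2668 to 2776 CPM in the other male libraries. The median correlation of the family with the other members was 0.86. Since most of the members are correlated, the number of them that lie on one side in a comparison is not a number of independent observations.

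**Figure D4:**
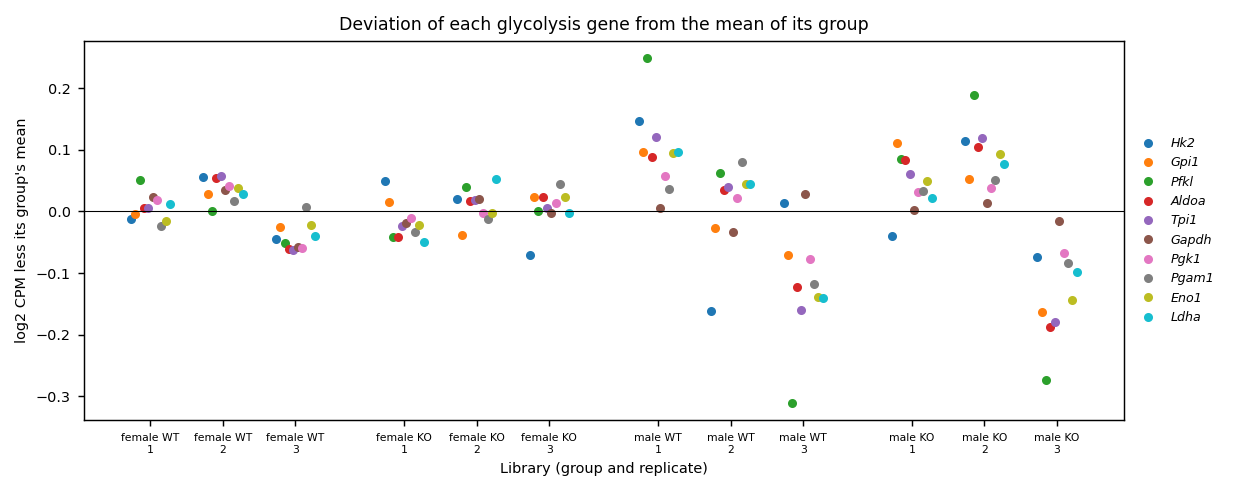
Log2 CPM of each gene less the mean of its group (vertical axis) in each library, with 1 point per gene. In the male libraries numbered 3 most points lie below 0, 8 and 10 of them being the lowest of their group, and *Gapdh* stays near 0.

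The genes around the pathway were summarised from lists. None of their genes passed an adjusted p under 0.05 in a comparison of KO and WT (edgeR), as with the members. In the female KO, 4 of the 7 genes of the pentose phosphate pathway, the branch that makes NADPH and ribose from glucose phosphate, had an unadjusted p under 0.05, beside the 7.55% of all genes given above. No more than 1 gene did so in any of the other lists around the pathway.

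Between the sexes more of them differed, and their counts stand beside 18.9% of all genes higher and 19.8% lower in WT, and 18.9% and 19.7% in KO. Of 6 transport genes 2 were higher and 2 lower in female MEFs in both genotypes. *Slc2a1*, the basal glucose transporter, had 86 to 92.1 CPM in female and 107 to 145 CPM in male libraries, a log2 difference of −0.53 in WT and −0.42 in KO (edgeR, adjusted p = 0.00138 and 0.00522). *Slc16a3*, which exports lactate, had 21 to 25.3 CPM in female and 28 to 52.1 CPM in male libraries, with differences of −0.85 and −0.83 (adjusted p = 0.00755 and 0.00859). *Slc2a3*, a glucose transporter of high affinity, went the other way. It had 8.49 to 15.4 CPM in female and 4.38 to 7.5 CPM in male libraries, with differences of 1.32 and 0.81 (edgeR, adjusted p = 0.0007 and 0.0108). Within female MEFs it had 13.9 to 15.4 CPM in WT and 8.49 to 10.2 CPM in KO libraries, a gap downwards that 8.2% of all genes showed. *Slc16a1*, the other monocarboxylate transporter, was higher in female than in male MEFs by 0.35 and 0.32. *Bsg*, the chaperone of these lactate carriers, did not pass, with 349 to 435 CPM.

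Of 17 hypoxia targets outside glycolysis, 10 were lower and 2 higher in female WT, and 9 lower and 2 higher in female KO MEFs. Their median log2 difference was −0.37 in WT and −0.31 in KO, beside −0.01 and 0 over all genes. *Vegfa*, the endothelial growth factor, had 39.2 to 47.3 CPM in female and 77.1 to 103 CPM in male libraries, differences of −1.12 and −1.04 (edgeR, adjusted p = 6.1e-05 and 9.1e-05). *Ankrd37* differed by −1.46 and −0.95 and *Kdm3a*, a histone demethylase, by −0.47 and −0.45. *Adm*, which encodes adrenomedullin and is also a hypoxia target, was higher in female MEFs by 0.82 and 0.84 (adjusted p = 9.6e-06 and 8.1e-06). The members themselves had a median difference of 0.04 in WT and 0.13 in KO.

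**Figure D5:**
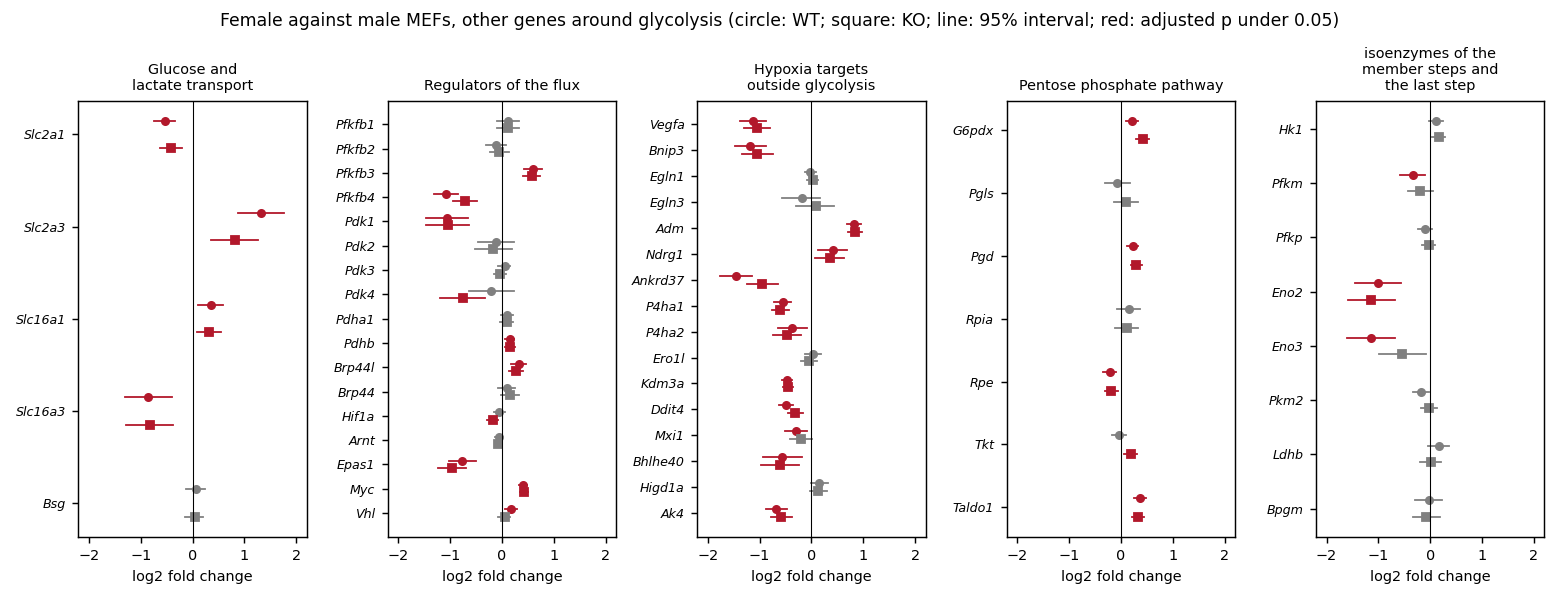
Log2 fold change of female against male MEFs (horizontal axis) for listed genes with a mean of at least 1 CPM, in WT (circles) and KO (squares), with 95% intervals. Most hypoxia targets lie left of 0, with *Vegfa* at −1.12 and −1.04, while *Adm* lies at 0.82 and 0.84 and *Slc2a3* at 1.32 and 0.81.

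Of 17 regulators, 5 were higher and 3 lower in female WT, and 4 higher and 5 lower in female KO MEFs. *Pfkfb3* and *Pfkfb4*, isoenzymes that set the level of the activator of phosphofructokinase, differed in opposite directions. *Pfkfb3* was higher in female MEFs by 0.60 and 0.57 (edgeR, adjusted p = 0.0002 and 0.00028), and *Pfkfb4* lower, with −1.08 and −0.72 (adjusted p = 5e-05 and 0.00052). *Myc* had 131 to 137 CPM in female and 96.7 to 105 CPM in male libraries, a difference of 0.41 and 0.42 (adjusted p = 3.4e-05 and 2.6e-05). *Epas1*, the gene of HIF-2 alpha, differed by −0.77 and −0.97, and *Hif1a* differed by −0.17 in KO (adjusted p = 0.0155) and by −0.05 in WT (adjusted p = 0.419), and the test of the difference between these gave −0.12 (unadjusted p = 0.104, adjusted p = 1).

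Of the 7 pentose phosphate genes, 3 were higher and 1 lower in female WT, and 4 higher and 1 lower in female KO MEFs. *Taldo1*, the transaldolase, was higher by 0.37 and 0.33, *Pgd* by 0.23 and 0.30, and *G6pdx*, the first enzyme of the branch, by 0.21 and 0.43 (edgeR, adjusted p = 0.0128 and 0.00027). *Rpe* was lower, with −0.21 and −0.19. Of the isoenzymes, *Eno2*, the neuronal enolase, had 2.47 to 3.24 CPM in female and 3.97 to 7.33 CPM in male libraries, with differences of −1.01 and −1.14 (adjusted p = 0.00285 and 0.00156). *Eno3*, the muscle enolase, differed by −1.15 in WT and by −0.54 in KO (adjusted p = 0.00159 and 0.0562). *Pfkm*, the muscle phosphofructokinase, differed by −0.34 and −0.19 (adjusted p = 0.0303 and 0.203). *Pkm2* did not pass in either genotype. *Hk3*, a hexokinase of blood cells, was higher in female MEFs by 3.11 and 2.99, at 0.619 to 2.81 CPM in female and at most 0.248 CPM in male libraries.

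With the 2 male libraries numbered 3 left out, no listed gene called before turned its sign. *Vhl* and *Ndrg1* lost their calls in WT among these lists, and the transport list kept 2 higher and 2 lower in both genotypes. The hypoxia list then had 1 higher and 10 lower in WT, and 2 higher and 10 lower in KO. *Eno3* and *Pfkm* were then called in KO too (−0.78 and −0.32, adjusted p = 6.5e-05 and 0.00018, edgeR), and *Pkm2* was called lower in both genotypes. Of the marker lists, 9 of 10 macrophage genes were called higher in female MEFs in each genotype.

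Promoter windows, 250 bases before to 50 after the start, were available from RefSeq for all 10 members, 15 windows in all (build GRCm38.p6, not the mm9 of the counts). They were searched on both strands for ACGTG, the core of the HIF response element that is also part of the E-box. It was present in 7 of the 15 windows, which belong to 6 members (*Hk2*, *Aldoa*, *Gapdh*, *Pgk1*, *Pgam1* and *Ldha*), and in 19.6% of 32851 promoter windows of the same length. The variant GCGTG was present in 8 of the 15 windows and in 32.4% of all windows. Either was present in 12 of the 15 and in 43.8% of all. *Ldha* had the most matches, 5 in one window, counting the overlapping matches on both strands of the palindrome CACGTG separately.

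Stretches of 4 promoters are shown with ACGTG or its reverse complement in capitals, as examples of the matches, with their positions in GRCm38.p6 (chr7:126799366-126799390 minus strand, chrX:106186940-106186983 plus strand, chr19:41911747-41911771 plus strand and chr7:46845649-46845784 plus strand). *Gpi1*, *Pfkl*, *Tpi1* and *Eno1* held no ACGTG in these windows. A match is a description of the letters and not a binding site.
Aldoa: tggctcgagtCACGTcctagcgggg
Pgk1: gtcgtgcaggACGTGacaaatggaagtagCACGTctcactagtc
Pgam1: ctccttgcttACGTGcgctccgtga
Ldha: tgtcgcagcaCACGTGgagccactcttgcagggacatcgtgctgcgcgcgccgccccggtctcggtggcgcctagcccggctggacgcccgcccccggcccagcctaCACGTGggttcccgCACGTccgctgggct

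The members are scattered over the genome. In mm9 *Hk2* (82675019 to 82724448), *Tpi1* (124760604 to 124764314) and *Gapdh* (125111871 to 125116485) lie on chromosome 6, all on the minus strand. *Gpi1* (34987141 to 35015308), *Aldoa* (133938748 to 133944265) and *Ldha* (54096845 to 54110997) lie on chromosome 7, *Ldha* on the plus strand. *Pfkl* lies on chromosome 10 (77449692 to 77472828), *Eno1* on chromosome 4 (149610830 to 149622988) and *Pgam1* on chromosome 19 (41986361 to 41993154). *Pgk1*, at 103382439 to 103399038, is the 1 member on the chromosome of *Firre*, and its log2 differences between KO and WT were 0.07 in female and −0.02 in male MEFs.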

How the data were processed

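RNA was measured in 12 MEF libraries. The authors filtered and mapped reads with Bowtie2, quantified genes with RSEM 1.2.29 on mm9 and deposited unscaled expected counts per gene. From 14.7% to 16.8% of a library's values were not whole. All gene identifiers match the NCBIM37 annotation used for coordinates and lengths. Counts were rounded and tested with edgeR 4.0.16 (R 4.3.3, quasi-likelihood test, TMM, filterByExpr), 1 mean per sex and genotype, 8 residual degrees of freedom and Benjamini-Hochberg adjustment over 15387 genes. The common biological coefficient of variation was 0.114. SEs are the log2 fold change over the root of F, and 95% intervals use the t distribution with the fit's degrees of freedom. CPM are TMM-scaled. Approximate TPM use merged exons. Near copies were found with BLASTN 2.17.0. Depth limits the precision of low genes. Alternatives were DESeq2 1.42.0, other scalings, no filter, the compared libraries alone, a replicate block, copies added, and libraries left out.

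The members and gene lists were chosen with earlier results of these data known. All members were named, with up to 4 listed genes of smallest adjusted p, isoenzymes and transporters of at least 1 CPM, and the copies with most counts. *Hif1a*, *Pklr*, *Pgk2*, *Ldhc*, *Fbp1*, *Fbp2*, *G6pc* and the marker genes were named after their values were seen. The Hi-C tables and the CTCF ChIP-seq samples were not used here. Some items of the isoenzyme list are not reported here.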

Additional observations from a re-analysis of the deposited data

How the results depend on the processing

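The count of members past the thresholds of the study was 0 in each of the 6 comparisons and stayed 0 in 49 of 52 other settings and in 47 of 48 fits without 1 library. In female against male WT MEFs it ranged from 0 to 1 over the fits without 1 library, and it was 1 without the male WT library numbered 3 and 1 with both male libraries numbered 3 left out, an alternative chosen after seeing the data. With an adjusted p under 0.05 and no fold limit it was 2 in WT and 3 in KO. The sign turned for *Eno1* in male KO against WT with library size alone (0.01). With both male libraries numbered 3 left out it turned for *Gpi1* in male KO against WT (0.01), for *Pgk1* (−0.00) and *Eno1* (−0.03) in female against male WT, and for *Aldoa* (−0.06) in female against male KO. With 1 library left out, log2 differences between KO and WT in male MEFs crossed 0 for *Hk2* (−0.05 to 0.11), *Gpi1* (−0.09 to 0.04), *Pfkl* (−0.21 to 0.06), *Aldoa* (−0.13 to 0.01), *Tpi1* (−0.10 to 0.06), *Pgk1* (−0.05 to 0.02), *Pgam1* (−0.03 to 0.07), *Eno1* (−0.07 to 0.06) and *Ldha* (−0.08 to 0.04). Between the sexes they crossed 0 for *Hk2* (−0.00 to 0.15), *Pgk1* (−0.00 to 0.06) and *Eno1* (−0.03 to 0.09) in WT and for *Aldoa* (−0.06 to 0.08) and *Ldha* (−0.07 to 0.02) in KO. None of these had an adjusted p under 0.05 in the fit of all libraries, and the cause was not tested. In the female KO the 10 signs held in all settings run. *Pfkl* between the sexes ran from −1.01 to −0.74 in WT and from −0.75 to −0.53 in KO.

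The replicate number as a block called 0 members at the thresholds of the study in every comparison. At an adjusted p under 0.05 it added *Ldha* (−0.15) in female against male WT, and *Gpi1* (0.17), *Pgk1* (0.13) and *Eno1* (0.16) in KO. The share of all genes that the blocked fit called is not given here, so these added calls are not a result about the members. Same-numbered WT and KO libraries correlated with −0.164, −0.118 and −0.152 in female and 0.0966, 0.216 and 0.333 in male MEFs after the group means were taken away, so the numbers were not treated as pairs. *Pgk1* in female against male KO, with an adjusted p of 0.0503, passed 0.05 in 5 settings other than leaving out a library.

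With near copies added, the members' share of a library was 0.974% in female WT, 1.04% in female KO, 0.926% in male WT and 0.921% in male KO. Without mitochondrial genes in the total it was 0.916% in female WT and 0.965% in female KO. With the longest transcript as the length, levels in TPM were 33.3 for *Hk2*, 316 for *Gpi1*, 1241 for *Aldoa*, 537 for *Tpi1*, 3720 for *Gapdh*, 1261 for *Pgk1*, 727 for *Pgam1*, 2749 for *Eno1* and 1515 for *Ldha*.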

Other observations

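Of the 7 genes of gluconeogenesis, the route back from pyruvate to glucose, 4 were tested. *Fbp1*, *Fbp2* and *G6pc* were at or near 0, with at most 0.0377 CPM. *Pck2*, the mitochondrial carboxykinase, was lower in female MEFs, with log2 differences of −0.74 in WT and −0.69 in KO (edgeR, adjusted p = 0.002 and 0.00317). *G6pc3*, the phosphatase of most tissues, differed by −0.20 in WT (adjusted p = 0.0397). *Pck1*, called in WT, reached 2.91 CPM in the male WT library numbered 3 and at most 0.506 CPM in the other WT libraries. Its log2 difference was −7.06 (adjusted p = 0.0234), and −5.59 with the male libraries numbered 3 left out (adjusted p = 0.0069, edgeR), with at most 0.0234 CPM in the female WT libraries. In KO it was −1.24 (adjusted p = 0.562), and 5.63 (adjusted p = 0.05) without those libraries. These fitted sizes rest on counts near 0.

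The genes whose level followed the mean of the 10 standardised members most closely over the 12 libraries were *Tmcc2* (r = 0.959), *Bag6* (0.946), *Rpsa* (0.945), *Foxp4* (0.943) and *Oaz1* (0.933). With the mean of each group taken away they were *Tmcc2* (0.975), *Mapkapk2* (0.973), *Hdlbp* (0.970), *Ltbr* (0.969) and *Agap3* (0.966). These correlations describe 12 libraries that share their scaling, among which the male libraries numbered 3 deviate most for the members.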
